A study of Homo sapiens with 2 samples.

Results

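The 8 genes of the human E2F family, E2F1 to E2F8, were examined as places where the E2F1 protein itself was called on DNA. A gene was counted as bound where a peak of an E2F1 ChIP-seq list overlapped, by at least 1 bp, the stretch from 2 kb before to 2 kb after its hg19 start site. The start sites were fixed positions, 1 for each gene. All 8 genes had such a peak, with 9 peaks in all out of 28734 in the list. The cells were LNCaP-abl, prostate cancer cells derived from LNCaP that grow without androgen, at passages 61 to 64. They grew in medium with 10% charcoal-stripped serum and spent the last 3 days without androgen. The series has 2 samples, 1 precipitated with E2F1 antibodies of 2 suppliers and 1 input to which no antibody was added. Only the immunoprecipitation has a peak list here, so no value has a replicate, enrichment over input was not compared, and read depth is unknown.

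E2F proteins are transcription factors that control genes of S phase entry and DNA replication. E2F1, E2F2 and E2F3 are known as activators that are held in check by the retinoblastoma protein RB. E2F4 and E2F5 act mostly as repressors together with the RB-related pocket proteins. E2F6 represses without pocket proteins and is known from polycomb complexes, while E2F7 and E2F8 are atypical members that bind DNA without a DP partner and repress E2F target genes. Several family genes are themselves known E2F targets, among them E2F1, E2F7 and E2F8, so that the family forms feedback loops.

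The promoter sequences below show what stood before the start sites of the strongest, middle and weakest family genes for which a sequence was found. They are the 180 bases before the RefSeq start site in the build GRCh38.p14, written 5′ to 3′ on the strand of the gene. Capitals mark matches, on either strand, to the E2F motifs TTTCCCGC, TTTCGCGC, TTTGCCGC and TTTGGCGC, or to the same motifs without their first or last base. Adjoining or overlapping matches run together. These windows could not be lined up base by base with the hg19 peaks, because the builds differ.
E2F1, chr20:33686386-33686565 (- strand): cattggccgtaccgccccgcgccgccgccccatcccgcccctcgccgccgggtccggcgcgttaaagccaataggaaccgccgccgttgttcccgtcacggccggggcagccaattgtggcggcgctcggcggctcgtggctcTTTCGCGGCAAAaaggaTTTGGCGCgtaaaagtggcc
E2F3, upstream start site, chr6:20401699-20401878 (+ strand): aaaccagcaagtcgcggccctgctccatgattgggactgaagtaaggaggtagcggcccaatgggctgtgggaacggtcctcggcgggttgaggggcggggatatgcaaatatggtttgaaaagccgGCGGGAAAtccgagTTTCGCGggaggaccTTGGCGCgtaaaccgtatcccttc
E2F2, chr1:23531234-23531413 (- strand): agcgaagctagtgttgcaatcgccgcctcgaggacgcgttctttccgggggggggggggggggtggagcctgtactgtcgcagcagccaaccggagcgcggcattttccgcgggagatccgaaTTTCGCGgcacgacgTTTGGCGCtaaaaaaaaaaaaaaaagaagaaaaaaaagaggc
E2F7, chr12:77065570-77065749 (- strand): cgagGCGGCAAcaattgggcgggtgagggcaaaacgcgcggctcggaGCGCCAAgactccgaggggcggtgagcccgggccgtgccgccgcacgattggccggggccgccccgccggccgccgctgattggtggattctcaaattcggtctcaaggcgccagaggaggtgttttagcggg
E2F4, chr16:67191975-67192154 (+ strand): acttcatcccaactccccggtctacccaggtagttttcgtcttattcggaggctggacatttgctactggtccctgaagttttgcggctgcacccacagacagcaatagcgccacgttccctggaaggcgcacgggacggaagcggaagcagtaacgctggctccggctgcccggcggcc

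E2F1 was called directly over the start site of every family gene. In all 8 genes the strongest peak covered the start site itself, and its centre lay between 17.5 and 314 bp from it, with a median of 115 bp. As background, 3.93% of equal windows of 4001 bp, tiled along chromosomes 1 to 22, X and Y, overlapped a peak, and 0.488% of bases lay in one. Those shares are over the whole genome, stretches without promoters included. The share of all promoters with a peak was not analysed here, so the count says nothing of how the family compares with other genes.

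**Figure D1:**
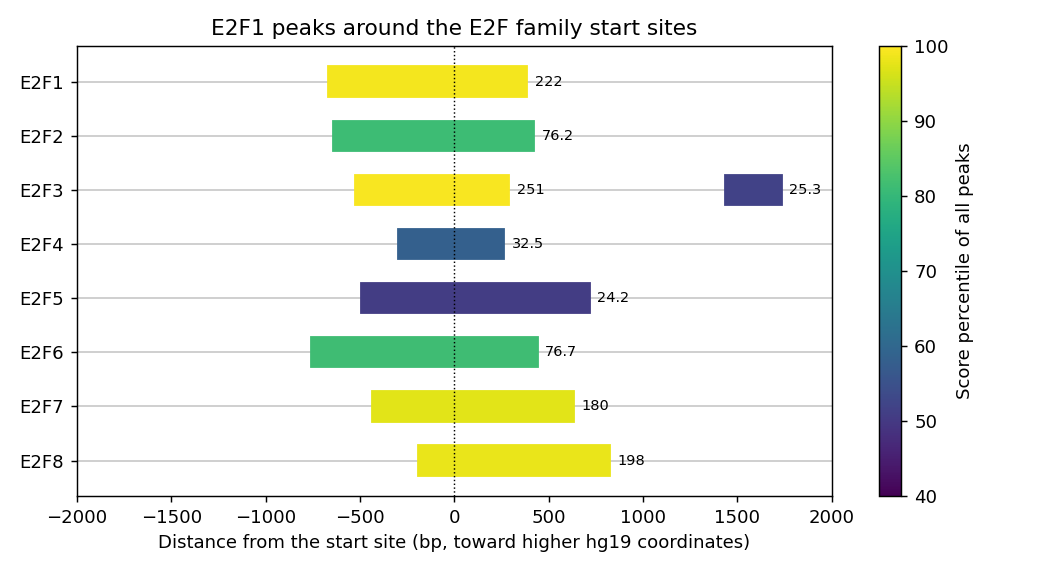
Map of the E2F1 peaks within 2 kb of each E2F family start site. The horizontal axis is the distance from the start site in bp, bars are peaks, their colour is the score percentile and the printed number is the authors' score. A bar crosses the dotted start site in all 8 genes, and E2F3 has a further peak from 1434 to 1733 bp beyond it.

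The family split by peak strength. Strength is given as the score the authors deposited for each peak, taken as higher for stronger peaks, and as its percentile, the share of all 28734 peaks with a score at or below it. E2F3, E2F1, E2F8 and E2F7 had peaks between the percentiles 97.3 and 99.5. E2F6 and E2F2 were at 81.4 and 81.2, and E2F4 and E2F5 lay near the middle of the list, at 58.2 and 50.8. Thus 4 of 8 genes had a peak in the top 10% of the list, while 10.0% of peaks and 0.46% of the tiled windows did. Between E2F7 and E2F6 there was a gap of 15.9 percentile points with no family gene in it. The median over the 8 strongest peaks was a score of 128, against 23.5 over all peaks, and all 8 were above the latter. Peaks at other promoters were not ranked apart from the rest of the list. These scores therefore do not show how the family compares with other genes. With 1 library there is no replicate spread to set these differences against.

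**Figure D2:**
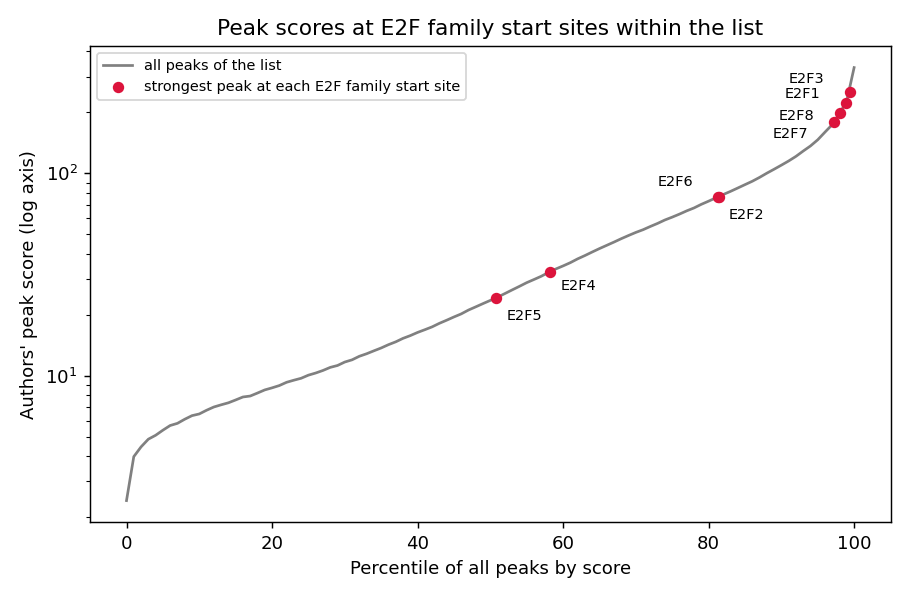
Score of the strongest peak at each E2F family start site (red points) on the curve of all peaks of the list (grey), with the percentile on the horizontal axis and the authors' score on a log axis. E2F3, E2F1, E2F8 and E2F7 sit at the upper end, from 97.3 upward, and E2F4 and E2F5 near the middle.

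Among the activators, E2F3 and E2F1 were high and E2F2 was lower. The peak over the E2F3 start site (chr6:20401609-20402427 in hg19, as are all peak positions here) scored 251, and 156 peaks of the list scored higher. The peak at E2F1, the gene of the precipitated factor (chr20:32273541-32274595), scored 222, and 329 peaks scored higher. On chromosome 20, 8 of 835 peaks scored above that at E2F1, and on chromosome 6, 9 of 1647 scored above that at E2F3. E2F2 (chr1:23857071-23858133) had a score of 76.2, with 5395 peaks above it. The E2F1 and E2F2 peaks were almost equally wide, at 1055 and 1063 bp, and both reached farther into the gene than before it. At E2F1 the peak ran from 385 bp upstream to 669 bp downstream of the start site, and at E2F2 from 421 bp upstream to 641 bp downstream.

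E2F3 was the family gene with more than 1 peak. This gene is known to have a pair of promoters, for a longer and a shorter form of the protein (E2F3a and E2F3b). Its further peak (chr6:20403571-20403870) was 300 bp wide, scored 25.3 (percentile 51.9) and began 1143 bp past the end of the strong one. In RefSeq on GRCh38.p14 the annotated E2F3 start sites of the promoter table are 1735 bp apart, and in hg19 the weaker peak lies 1434 to 1733 bp downstream of the start site used here. The start sites of the builds were not mapped to each other, so whether the weaker peak lies at the downstream promoter was not tested. Close pairs are common in the list, where 18.0% of nuclear peaks have another peak at most 1143 bp away.

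The canonical repressor genes E2F4 and E2F5 had the weakest peaks of the family. E2F4 (chr16:67225770-67226331) scored 32.5, with the narrowest of the 8 strongest peaks, 562 bp, centred 17.5 bp from the start site. E2F5 (chr8:86089123-86090336) scored 24.2, just above the median of the list, 23.5. Its peak was the widest in the family, at 1214 bp. In the RefSeq annotation the gene RBIS overlaps E2F5. Whether the start site of RBIS lies under the same peak was not analysed here.

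E2F6 stood between these groups, with a score of 76.7 over chr2:11605545-11606743. Its peak was 1199 bp wide and reached from 440 bp upstream to 758 bp downstream of the start site. E2F6 and E2F2 were 0.47 apart in score, and their percentiles differed by 0.17 points.

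The atypical repressors E2F7 and E2F8 both had strong peaks. E2F8 (chr11:19262313-19263329) scored 198, with 554 peaks of the list above it. E2F7 (chr12:77458925-77459994) scored 180, with 776 above it. The E2F7 peak lay mostly before the start site, with 634 bp upstream and 435 bp downstream. The E2F8 peak was the least centred in the family. It covered 194 bp on the side of lower coordinates and 822 bp on the side of higher ones. Its centre was 314 bp from the start site, against 17.5 to 159 bp in the other genes.

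Most of the strongest peaks at the family genes were wide for the list, and width did not follow score among them. The strongest peaks had a median width of 1059 bp, against 418 bp over the list and 764 bp over its top 10% by score. The peaks of E2F1, E2F2, E2F5, E2F6, E2F7 and E2F8 were among the widest 10.0% of the list (6 of 8 genes). Those over the E2F3 and E2F4 start sites were at the width percentiles 84.8 and 65.2. Widths of peaks at other promoters were not measured, so these values do not show how the family compares with other genes. For a comparison at like width, the list was cut by width into 10 bins of equal numbers. Within the widest bin, of 919 to 2828 bp, the scores of family peaks ran from near the bottom to near the top. The E2F5 score was at the percentile 4.35 of that bin, where 125 of 2873 peaks scored as low or lower. E2F2 and E2F6 were in the middle, at 51.8 and 52.2, and E2F7, E2F8 and E2F1 at 93.3, 95.7 and 97.9. The E2F3 peak over the start site, 819 bp wide, was at 97.7 of its own bin, and the E2F4 peak at 30.5. The further E2F3 peak, at the middle of the whole list, was at 96.1 among peaks as narrow as itself. The order of the groups was kept among peaks of like width, but E2F4 fell from the percentile 58.2 to 30.5 and E2F5 from 50.8 to 4.35.

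**Figure D3:**
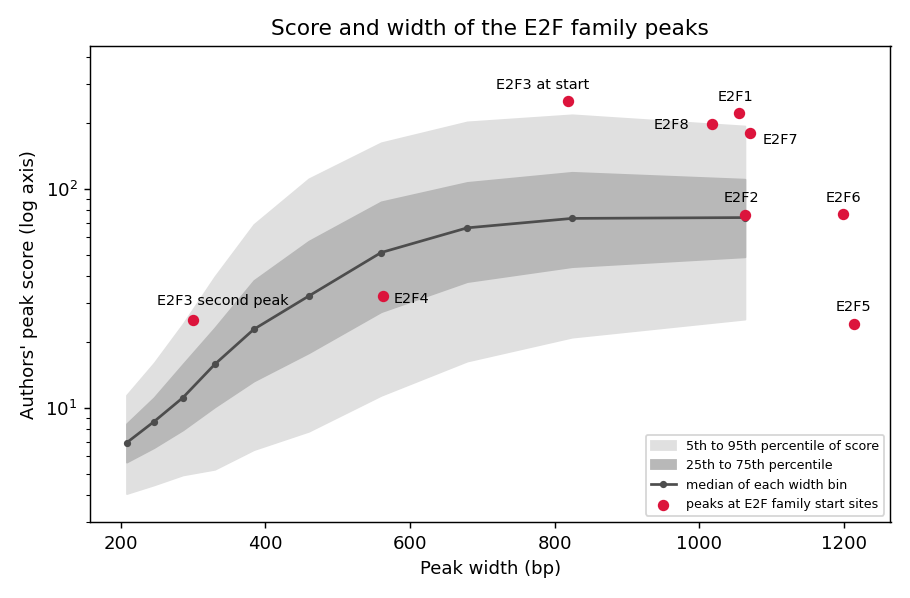
Score (log axis) against width in bp for the 9 peaks at E2F family start sites (red), over the spread of scores in each of 10 bins of all peaks by width (grey bands and median line, drawn at the median width of each bin). E2F1, E2F3, E2F7 and E2F8 lie at the upper edge of peaks of like width, E2F2 and E2F6 near the median of the widest bin, and E2F5 at the bottom.

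The surroundings of the genes also differed. E2F4 lay in a dense stretch, with 14 peaks within 100 kb of its start site, more than or as many as around 97.0% of nuclear peaks. Of the 13 others there, 10 scored above the peak at E2F4, up to 201 at a site 54477 bp away. The nearest peaks outside the 2 kb limit in the whole family were also at E2F4, at 6751 bp with a score of 34.3 and at 7494 bp with 66.5. Inside the limit, the farthest was the further E2F3 peak, at 1434 bp. E2F5 had 3 other peaks within 100 kb, and all 3 scored higher, at 215, 78.3 and 77.4. E2F2 had 7 others, of which 1 scored higher, 116 at a distance of 28048 bp. Its nearest protein-coding neighbours in RefSeq are ASAP3 and ID3, and to which gene that peak belongs was not analysed here.

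At E2F1, E2F3, E2F6, E2F7 and E2F8 no peak within 100 kb outscored the one over the start site. This held for 5 of 8 genes, while 31.1% of nuclear peaks are unsurpassed within that distance. At E2F3, E2F7 and E2F8 there was little to compete with, since 2, 2 and 1 peaks lay within 100 kb, their own included. Around E2F8 the nearest other peaks were 104034 bp away (score 21.1) and 123158 bp away (score 118). Around E2F7 there was a weak peak of score 5.10 at 54356 bp, and the next on the other side was at 259042 bp. E2F1 had 6 other peaks within 100 kb, up to a score of 114 at 45389 bp, and E2F6 had 4, up to 27.9.

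**Figure D4:**
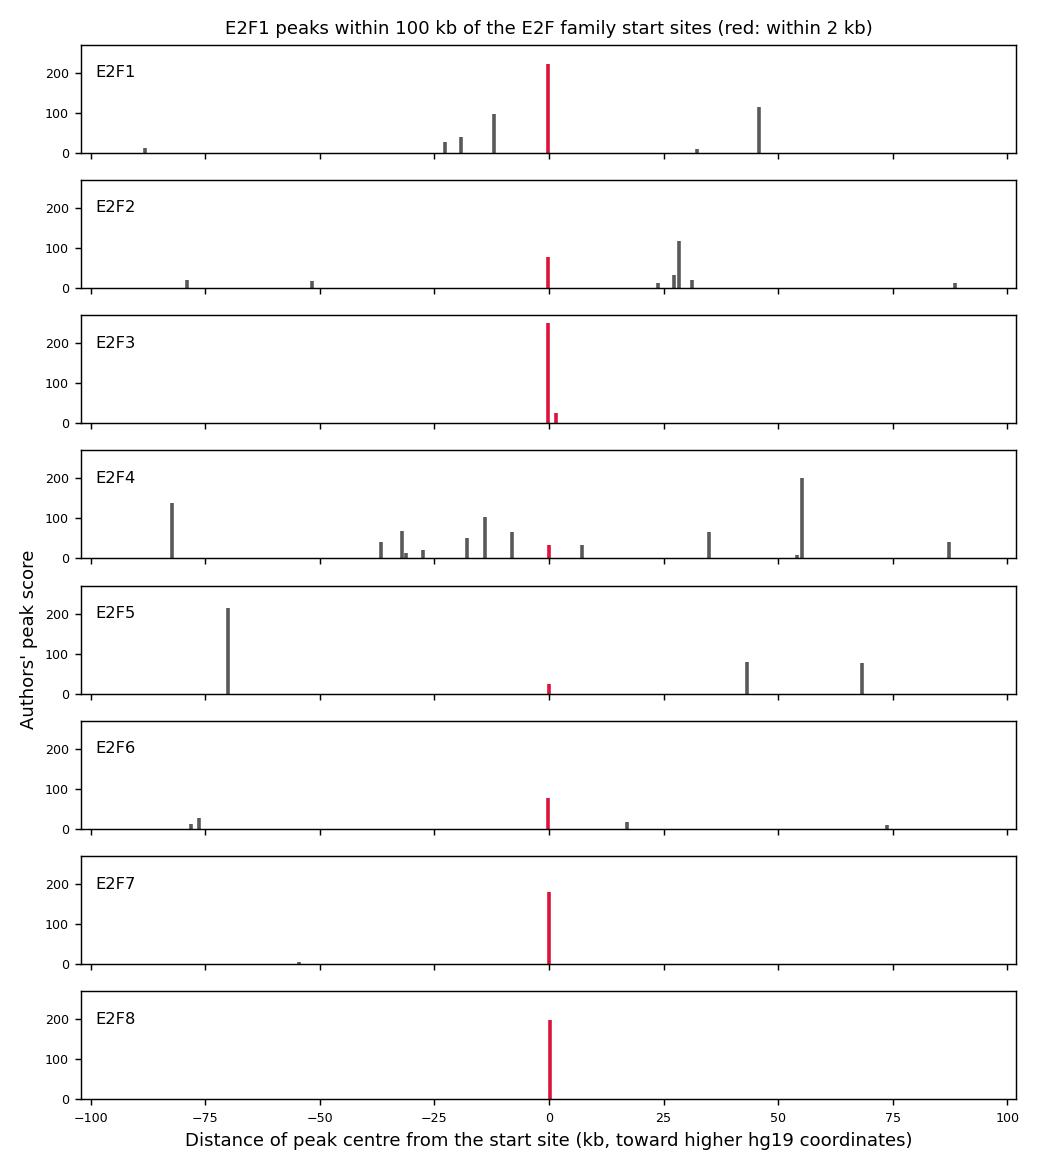
Peaks within 100 kb of each E2F family start site, with the distance of the peak centre in kb on the horizontal axis and the authors' score as the height of the line (red, within 2 kb). The red line is the tallest at E2F1, E2F3, E2F6, E2F7 and E2F8, whereas at E2F4 and E2F5 most other peaks are taller.

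The sequences printed above add a feature that the choice of peaks did not use. RefSeq promoter windows, from 250 bases before to 50 after the start site, were found for 6 of the 8 genes, E2F3 with 2 windows. E2F5 and E2F8 had no entry. An 8-base E2F motif (TTTCCCGC, TTTCGCGC, TTTGCCGC or TTTGGCGC on either strand) was present in 3 of the 6 genes, E2F1, E2F2 and E2F3, against 3.31% of 35116 promoter windows and 3.99% of genes in the table. E2F1 had 2 such matches, TTTGCCGC on the reverse strand from 33 bases and TTTGGCGC from 20 bases before the start. E2F2 had TTTGGCGC from 42 bases before it, and the upstream E2F3 window had TTTCCCGC on the reverse strand from 53 bases before it. All 4 matches thus lay within 53 bases of the start. The downstream E2F3 window and those of E2F4, E2F6 and E2F7 held none.

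Among the family genes with a sequence, the presence of an 8-base motif did not follow the order of the peak scores. E2F5 and E2F8 had no sequence, and a link between motif and score was not tested. E2F2 carried the same TTTGGCGC as E2F1 and had a score of 76.2 against 222. E2F7, with a score of 180, had no 8-base match. With the first T left off each motif, a form found in 13.0% of windows, E2F7 had 2 matches. They were TTGCCGC from 176 bases and the shortened form of the E2F1 motif, TTGGCGC, from 133 bases before the start, both on the reverse strand. E2F6 had 1 such match, after the start, and E2F4 again had none. With the last C left off instead, a form found in 8.67% of windows, TTTCCCG was found at E2F6 from 183 and 78 bases before the start. In this form E2F4 and E2F7 had no match.

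The promoters of E2F1 and E2F3 shared a longer run around these motifs. The longest run of bases common to the windows of E2F1 and E2F3 before the start was the 12-base TTGGCGCGTAAA, which began 19 bases before the start in E2F1 and 24 in E2F3. It was found in 2 of the 35116 windows, those of these genes. All runs were searched on the strand of the gene alone, and their reverse complements were not counted. E2F1 and E2F2 shared the 10-base TTTCGCGGCA, present in 4 windows, from 37 and 57 bases before the start. E2F2 and the upstream E2F3 window shared no run over 8 bases. Their shared 8-base runs included GCAGCCAA, which holds no E2F motif. They also included TTTCGCGG, which holds the shortened motif TTTCGCG, from 57 bases before the start in E2F2 and 39 in E2F3. E2F1 and E2F7 also shared a 10-base run, CCGCCCCGCC, present in 741 windows. The downstream E2F3 window shared a different 10-base run with E2F7, present in 462 windows, and another with E2F6, present in 29. The runs of E2F1 with E2F2 and E2F3 were picked after they were seen and carry no test. A match is a string of letters and not evidence of binding.

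Other promoter elements were unevenly spread in the family. The CCAAT box (CCAAT on either strand), a common element of cell cycle promoters, occurred 3 times at E2F1, 4 times at E2F3 upstream and 4 times at E2F7, and was not found in the windows of E2F2, E2F4 and E2F6. It was thus in 3 of the 6 genes, against 39.7% of genes in the table. Of all windows, 34.6% hold it, and 10.8% more than once. The family genes with a CCAAT match were the 3 with peaks in the top 10% among the 6 with a sequence, a match that was noticed after the values were seen and was not tested. The GC box GGGCGG was in 5 of the 6 genes, not at E2F2, against 48.3% of genes in the table, with 6 matches at E2F1. The cell cycle homology element (TTTGAA or TTCGAA) was in 1 window, the upstream one of E2F3, against 16.4% of all windows.

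All 7 family windows held more CpG than the median promoter. They had between 20 and 46 CpG per 300 bases, against a median of 14 over all promoters. E2F1 had the most, at the percentile 97.6 of all windows, and the upstream E2F3 window the fewest, at 60.5. A link between CpG and peak score was not tested. The E2F motifs and the GC box contain CpG themselves, and the part of base composition in the motif counts was not tested.

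Among 19 other genes of the pathway, 18 had a promoter sequence (not CCNE2), and 6 of these had an 8-base E2F motif, against 3.99% of genes in the table. Over the bases before the start alone, 4 of the 18 had one, against 3.40%. The 6 genes were RBL1, a pocket protein gene, and TFDP1, which encodes a DP partner of E2F proteins. The others of the 6 were LIN52, of the MuvB complex, CDC6 and MCM2, which license replication origins, and PCNA, the sliding clamp of DNA polymerases. RBL1 and MCM2 had 2 matches each. RB1, counted as without a motif, had 1 window with 0 CpG, while the highest count per gene was 16 to 52 in the others. Whether that window is the main RB1 promoter was not analysed here. CCAAT was in 10 of the 18 genes, against 39.7% of genes in the table, and GGGCGG in 15 of the 18, against 48.3%. Whether E2F1 was called at these genes was not analysed here, since their hg19 start sites were not at hand.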

How the data were processed

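E2F1 ChIP-seq of LNCaP-abl cells was analysed from 1 deposited peak list. The submitters' processing notes name hg19 as the build and MACS2 2.0.9, Bowtie and CASAVA 1.6.0 as tools. They give neither the settings nor the part of the input in peak calling. The score deposited by the authors has no stated scale, so it served to describe and rank peaks of this list alone. Such a score depends on both signal and local background. Starts were read as 0-based and are printed 1-based. Start sites of the 8 genes were given in hg19, and all 8 genes are named. Members and lists were chosen with earlier results of these data known, and 1 gene of the pathway list is not reported here. Python 3.11.15 (pandas 2.3.3, numpy 2.4.6) gave overlaps, percentiles, tiled windows and distances, and matplotlib 3.10.9 the figures. The overlap and percentile functions were tested on simulated data. The 10 width bins hold nearly equal numbers of peaks, by rank. Upstream and downstream follow the strand in the RefSeq promoter table (GRCh38.p14), which also gave the sequences. No test was run, because 1 library has no replicate. Alternatives changed the window, the score threshold, the set of peaks ranked against and the motif.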

Additional observations from a re-analysis of the deposited data

How the results depend on the processing

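All 8 genes kept a peak with windows of 500 bp, 1 kb and 5 kb either side, with the peak centre required inside the window, and among the top 50% of peaks by score. These settings could not lower the count. The strongest peak of each gene covered the start site, had its centre within 314 bp of it and scored above the median of the list. Among the top 10% of peaks, 4 genes kept one. This count was also 4 with 1 kb and 5 kb windows, of which only the 5 kb window could have changed it. The median percentile of the strongest peaks, 89.3, was 72.8 among peaks of the same width bin and 88.4 without score values held by at least 25 peaks. Without those, E2F5 was at 46.8, below the middle. Of 40 alternatives for single genes, 20 moved outside the 95% binomial interval of the percentile. That interval treats the peaks of the list as random draws and measures no spread between libraries. Counting peaks strictly below, or taking the peak nearest to the start site, left each value the same or nearly so. The nearest peak could not differ, since the strongest peak of each gene covered the start site. The 3 family genes with an 8-base motif became 5 without the first base and 4 without the last, and the 6 pathway genes became 10 and 9. The share of all genes in the table rose too, from 3.99% to 15.3% and 10.4%. Counting only bases before the start left 3 family genes and 4 pathway genes, against 3.40% of all genes. The form without the last base, and each alternative for pathway genes, was chosen after seeing the data. No paired analysis was possible because peaks of a single library were at hand. Without read counts, the limits set by depth are unknown.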
